A study of Sus scrofa with 63 samples.

Results

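Liver RNA of newborn piglets was compared with that of late fetuses, on 32 of the 63 Affymetrix porcine arrays of the series. The members were chosen by the stage in the labels, with 16 arrays of 94 dpc (days post conception) and 16 arrays of 1 dpn (day post natum), and with 1 array per animal. All animals were German Landrace, and the gilts that bore them had been fed the high protein (HP) diet during gestation, so every value describes HP offspring and no value describes an effect of the diet. The fetuses were taken by Caesarean section from a separate experiment with other sows and were killed by injection of T61, whereas the piglets were born after induction with prostaglandin and were killed under propionyl-promazine and ketamine. The smallest and the heaviest offspring of a litter were taken at both stages. Experiment, mode of killing and stage therefore cannot be told apart. The fetuses were taken before term and the piglets after it. The paper places the killing of the piglets more than 1 day after birth. The end of gestation, birth and the time up to that killing thus all lie between the stages. A change cannot be placed within that time. The 15 arrays of 28 dpn and the 16 of 188 dpn are used only to describe where a gene went later.

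Before birth the placenta supplies glucose, amino acids and lipids and clears waste, and the liver is also a site of blood formation. After birth the portal vein brings nutrients absorbed from colostrum, and the liver has to make its own glucose, oxidise fatty acids and form bile. Transporters set what enters and leaves a hepatocyte, transcription factors set which genes it reads, and secreted proteins are its products for the rest of the body. These 3 classes, together with the receptors for hormones, growth factors and cytokines, are described here.

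Values are log2 signals as deposited, a step of 1 being a doubling of the signal. The test was run on probe-sets that exceeded the array median in at least 50% of the animals of one stage, and a probe-set is said to have risen or fallen where limma's moderated test gave a Benjamini-Hochberg adjusted p under 0.05 over all 12839 tested probe-sets. Changes are 1 dpn minus 94 dpc, with their standard error (SE). Where a gene had several probe-sets, the one with the highest mean was taken. For background, 23 control probe-sets that match no porcine target were used, and their 95th percentile on an array averaged 6.10 at 94 dpc and 5.83 at 1 dpn. Where the mean of a stage lies under that background, the size of a change is not exact. Examples below are CRP, with a mean of 5.45 at 94 dpc, and CST6 and PSP-II, with means of 4.41 and 5.13 at 1 dpn. Levels of different genes are not compared, as probe-sets differ in brightness.

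The liver was recognisable at both stages. All 8 hepatocyte markers were above background at each stage, with signals of ALB between 15.68 and 16.25 (median 15.99) at 94 dpc and between 15.41 and 16.46 (median 16.02) at 1 dpn. Array 6 of 94 dpc stood apart, with a median correlation of 0.845 with the other arrays of its stage and the highest excess of 3′ over 5′ signal of its stage for actin (4.30, stage median 2.25) and GAPDH (2.54, stage median 0.98), a measure of RNA quality. At 1 dpn the stage medians were 1.57 for actin and 0.58 for GAPDH, and the median correlations of arrays 4, 9 and 11 were the lowest, at 0.874, 0.899 and 0.892. For 4 RNAs spiked in ahead of labelling, the excess of 3′ over 5′ signal was 0.525 to 0.818 at 94 dpc and 1.17 to 1.54 at 1 dpn, without overlap, so labelling and stage cannot be told apart. With this difference as a covariate 90 probe-sets rose and 147 fell, and 23 of the 168 genes chosen for naming kept their call. These were AQP1, SLC25A37, KLF1, CRP, LRG1, AZGP1, PON3, C4A, NUCB2, LIPA, PSP-II, CST6, EPDR1, NPG4, PR39, LTF, TFRC, EPOR, PDGFRB, CYP2E1, TP53INP2, ISYNA1 and LOC100738720. The estimates of 11 other genes, MFSD2A, SCARA5 and SDS among them, turned sign in that fit without passing the test. As the covariate does not overlap between the stages, the fit leaves little of the stage to estimate. Neither a kept nor a lost call in it can tell labelling from stage. By the paper's account the animals of a stage and diet were chosen as 8 sib pairs. Sex, mother and sib pair are not in the labels, and the SEs and p-values do not allow for them. They treat sibs as independent animals.

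From 94 dpc to 1 dpn a majority of the measured transcripts changed. Of the 12839 probe-sets 2940 rose (22.9%) and 4369 fell (34%). The share of the calls that rose was 40.2%, against 48.1% after quantile normalization and 50.9% after centring each array on its median, and the array medians of the tested probe-sets changed by −0.105. Of 5231 genes with a symbol 1458 rose (27.9%) and 1603 fell (30.6%), and their median change was −0.03. Of 119 tested transporters, out of 169 on the array, 43 rose (36.1%) and 32 fell (26.9%), with a median change of 0.09. Of 129 tested transcription factors, out of 181, 21 rose (16.3%) and 61 fell (47.3%), with a median of −0.26. Of 217 tested secreted proteins, out of 318, 58 rose (26.7%) and 89 fell (41.0%), but after quantile normalization 77 rose and 70 fell, so the direction of this class turns with the scaling. No test of a list was made, and members that failed the filter on level had to be low at both stages. Counts of subgroups given below are to be read against the shares of all genes, 27.9% that rose and 30.6% that fell. Several lie near these shares.

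**Figure D1:**
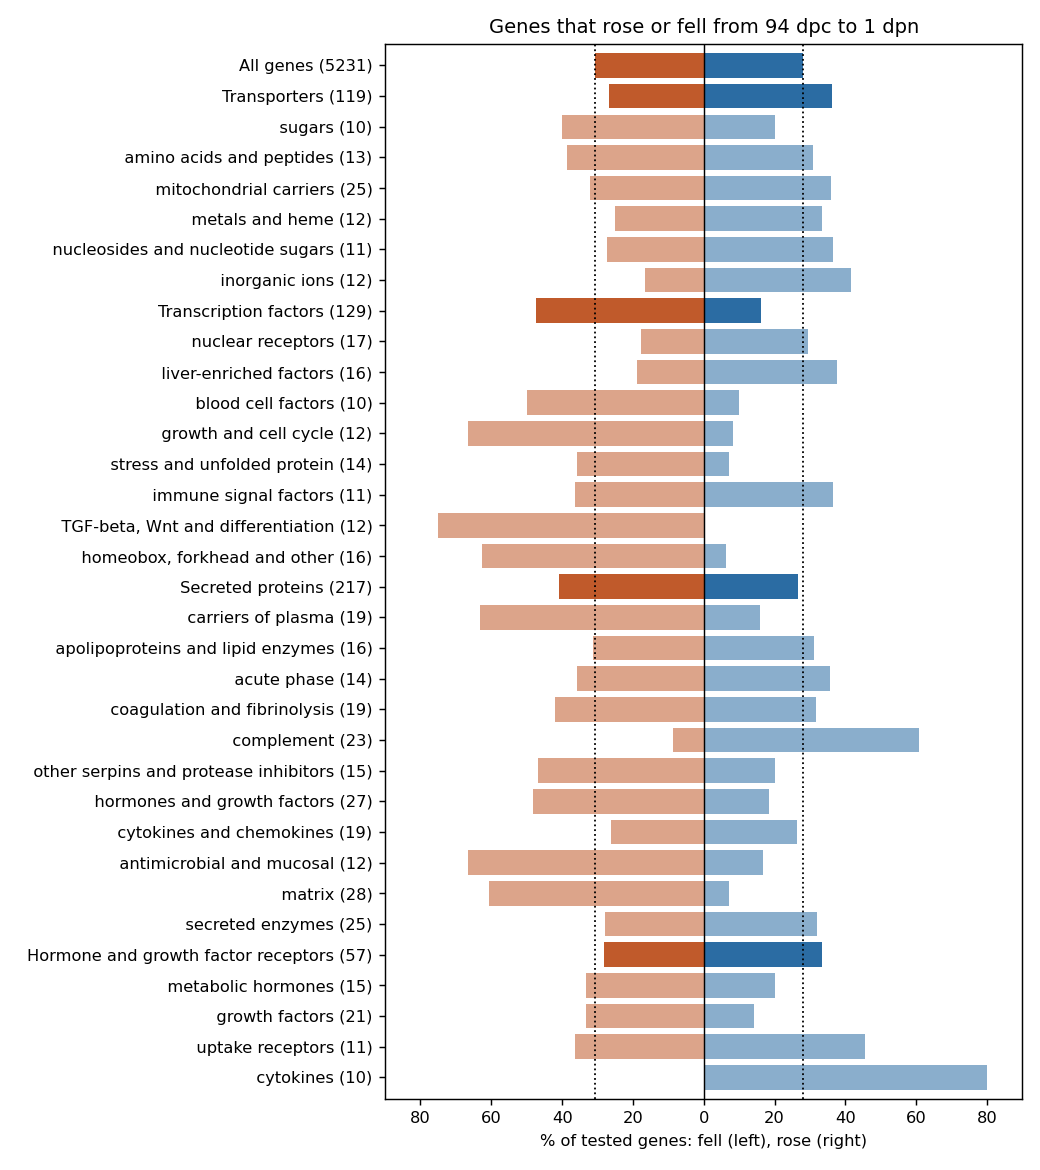
Percent of the tested genes that rose (blue, right) or fell (orange, left) from 94 dpc to 1 dpn, for all genes, for each class (dark bars) and for its subgroups of at least 10 tested genes (pale bars, number of genes in brackets). Dotted lines mark the shares of all genes, 27.9% for those that rose and 30.6% for those that fell; complement genes reach furthest to the right among secreted proteins and cytokine receptors among receptors.

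Transporters that rose belonged to several routes into and out of the hepatocyte. The largest increase was that of MFSD2A, a carrier of lysophospholipids, whose signals lay between 4.03 and 7.65 (median 6.57) at 94 dpc and between 7.49 and 11.65 (median 8.09) at 1 dpn. The stages overlapped only narrowly, and the gene rose by 2.09 (SE 0.34, adjusted p = 3.39e-06). ABCB1, the multidrug pump of the canalicular membrane, lay between 8.26 and 9.48 (median 8.86) at 94 dpc and between 9.26 and 11.56 (median 10.56) at 1 dpn. It rose by 1.54 (SE 0.16, adjusted p = 4.93e-10), and only the lowest piglets reached the range of the fetuses. Of the 7 transporters of bile acids, organic ions and drugs 4 rose and 1 fell. Among them ABCC2, which exports conjugates into bile, rose by 0.71, SLC22A5, the carnitine carrier, by 0.94, and SLC10A1, which takes up bile salts from the blood, by 0.59. The bile salt export pump ABCB11 did not pass the test, with a change of −0.13 (SE 0.21, adjusted p = 0.595). Of 6 transporters of sterols and lipids 3 rose and none fell, among them ABCG8, the sterol pump of bile, with 0.97 (SE 0.22, adjusted p = 0.000292).

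The 2 transporters that rose without overlap between the stages carry ions and metals. SLC12A4, a potassium chloride cotransporter, lay between 8.13 and 8.90 (median 8.49) at 94 dpc and between 9.03 and 10.34 (median 9.84) at 1 dpn. Every piglet lay above every fetus, and the gene rose by 1.28 (SE 0.11, adjusted p = 6.09e-12). SLC11A1, a metal transporter of phagocytes, lay between 6.20 and 7.61 (median 7.38) at 94 dpc and between 7.88 and 9.51 (median 8.24) at 1 dpn, again with no overlap, and rose by 1.08 (SE 0.14, adjusted p = 7.64e-08). Such separation was seen in 2.96% of all genes upwards and in 3.73% downwards. The related iron transporter SLC11A2 rose by 1.21 (SE 0.19, adjusted p = 2.07e-06), and the chloride channel CLCN2 rose by 1.62 (SE 0.32, adjusted p = 6.08e-05). CLCN2 was near background in the fetus, as it exceeded it in 6 of 16 arrays at 94 dpc and 15 of 16 at 1 dpn.

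Several vitamin and energy carriers rose as well. Of 9 transporters of vitamins and cofactors 5 rose and 3 fell. SLC5A6, which carries biotin and pantothenate, lay between 8.29 and 9.48 (median 8.97) at 94 dpc and between 9.34 and 11.30 (median 10.05) at 1 dpn, with 1 array of each stage in the range of the other, and it rose by 1.27 (SE 0.16, adjusted p = 2.82e-08). The folate receptors FOLR2 and FOLR1 rose by 1.19 and 1.06. SLC23A1, the ascorbate transporter, lay between 4.32 and 7.65 (median 6.92) at 94 dpc and between 6.34 and 8.56 (median 8.03) at 1 dpn, with overlap, and it rose by 1.29 (SE 0.30, adjusted p = 0.000441). The median was highest in the newborn among the 4 stages and was 4.91 at 28 dpn and 4.65 at 188 dpn, with 2 of 15 and 7 of 16 arrays above background there. Of 25 mitochondrial carriers 9 rose (36.0%) and 8 fell (32.0%), against 27.9% and 30.6% of all genes. SLC25A4, which exchanges ADP and ATP, lay between 11.10 and 11.98 (median 11.34) at 94 dpc and between 11.69 and 13.33 (median 12.79) at 1 dpn, nearly without overlap, and rose by 1.35 (SE 0.12, adjusted p = 2.48e-11). SLC25A20, the carrier of acylcarnitines, and SLC25A11, that of oxoglutarate and malate, rose by 1.09 and 1.16. Of 11 carriers of nucleosides and nucleotide sugars 4 rose and 3 fell, led by SLC35B1 of the endoplasmic reticulum, which lay between 9.19 and 10.50 (median 9.92) at 94 dpc and between 10.41 and 11.87 (median 11.47) at 1 dpn, nearly without overlap, and rose by 1.50 (SE 0.11, adjusted p = 6.71e-13).

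The sugar transporters split. SLC2A2, the glucose transporter of the adult hepatocyte, lay between 9.30 and 10.99 (median 10.69) at 94 dpc and between 10.64 and 12.13 (median 11.38) at 1 dpn, with overlap, and it rose by 0.78 (SE 0.15, adjusted p = 3.24e-05). The intracellular hexose transporter SLC2A8 lay between 7.10 and 8.60 (median 8.28) at 94 dpc and between 8.40 and 10.60 (median 9.50) at 1 dpn, with a narrow overlap, and rose by 1.38 (SE 0.17, adjusted p = 3.75e-08). The fructose transporter SLC2A5 went the other way and lay between 6.88 and 11.53 (median 9.03) at 94 dpc and between 2.48 and 6.62 (median 5.88) at 1 dpn. No piglet reached the lowest fetus, SLC2A5 exceeded background in 16 of 16 arrays at 94 dpc and 9 of 16 at 1 dpn, and it fell by 3.91 (SE 0.45, adjusted p = 5.53e-09). SLC2A3 and SLC2A1, the glucose transporters of fetal and dividing cells, fell by 1.01 and 0.58. In all, 2 of the 10 sugar transporters rose and 4 fell.

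Peptide and amino acid carriers fell in 5 of 13 (38.5%) and rose in 4 (30.8%), against 30.6% and 27.9% of all genes. Both peptide transporters of the list fell. SLC15A1 lay between 7.85 and 10.94 (median 9.03) at 94 dpc and between 4.95 and 11.17 (median 7.41) at 1 dpn, with wide overlap, and fell by 1.62 (SE 0.45, adjusted p = 0.0025). SLC15A2 lay between 11.06 and 11.86 (median 11.53) at 94 dpc and between 9.27 and 10.73 (median 10.21) at 1 dpn, with none, and fell by 1.31 (SE 0.13, adjusted p = 2.84e-10). SLC1A4 of neutral amino acids and SLC7A1 of cationic amino acids fell by 1.06 and 0.84, whereas SLC7A9, the cystine carrier, and SLC1A1, the glutamate carrier, rose by 0.99 and 0.68. SLC15A1 was low later too, as it exceeded background on 3 of 15 arrays at 28 dpn and 2 of 16 at 188 dpn.

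Of 12 transporters of metals and heme 4 rose, SLC11A1 and SLC11A2 among them, and 3 fell. AQP1 and 2 of the mitochondrial carriers, SLC25A37 and ABCB6, fell. AQP1, a water channel of red cells and of endothelium and bile ducts, lay between 10.83 and 12.29 (median 11.64) at 94 dpc and between 7.67 and 9.04 (median 8.63) at 1 dpn. The fetal range lay wholly above that of the newborn, and the gene fell by 3.00 (SE 0.16, adjusted p = 7.31e-17), which is 7.98-fold. SLC25A37, which brings iron into the mitochondria of red cell precursors, lay between 10.05 and 11.27 (median 10.75) at 94 dpc and between 7.76 and 9.18 (median 8.44) at 1 dpn, again without overlap, and fell by 2.20 (SE 0.14, adjusted p = 4.24e-15). ABCB6, a porphyrin transporter, fell by 1.18 (SE 0.20, adjusted p = 5.42e-06). These genes moved with the markers of red cell precursors, of which 9 of 9 fell, with a summed linear signal of 23279 to 51503 at 94 dpc and 4704 to 7646 at 1 dpn and none at background on all arrays of a stage. Their part in the changes of single genes was not tested, and in whole liver fewer cells of a type and less RNA per cell cannot be told apart. The later medians of AQP1 were 10.04 at 28 dpn and 10.63 at 188 dpn. SLC25A21, a carrier of oxoadipate, fell by 2.14 (SE 0.19, adjusted p = 4.01e-11) without overlap, and the zinc importer SLC39A5 fell by 0.80 (SE 0.07, adjusted p = 3.72e-11), also without overlap. With the labelling difference as a covariate no transporter rose and 2 fell.

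**Figure D2:**
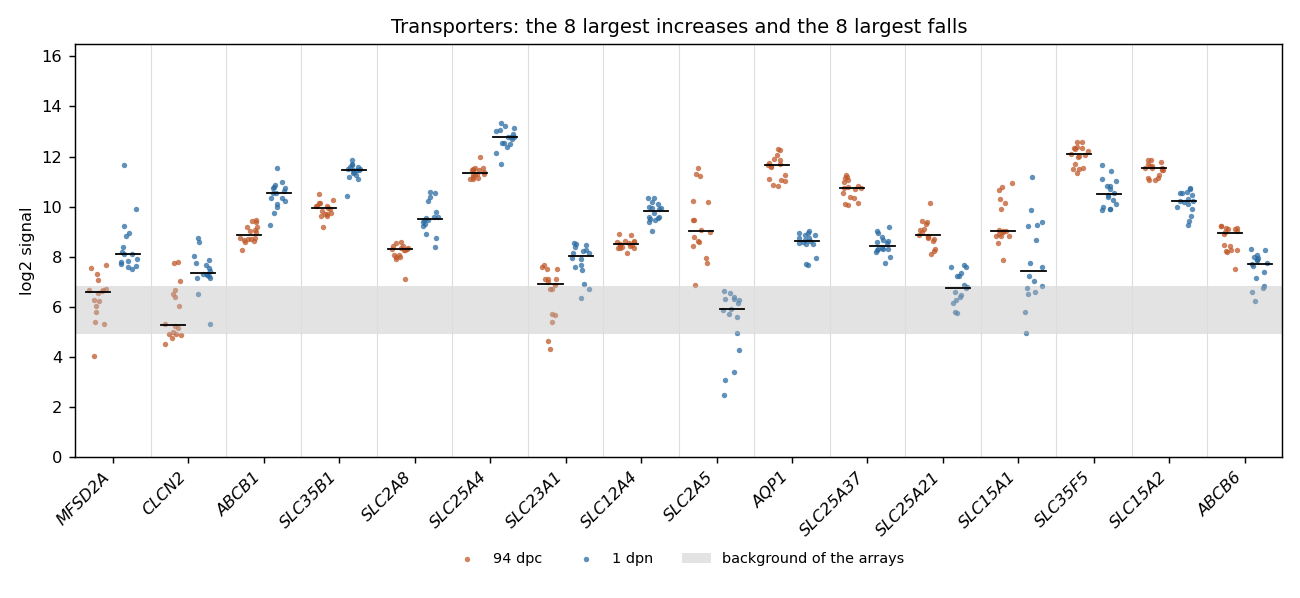
Log2 signals of the 8 transporters with the largest increases (left) and the 8 with the largest falls (right), with 1 point per array, 16 arrays per stage, orange for 94 dpc and blue for 1 dpn. Black bars are medians and the grey band spans the backgrounds of the 32 arrays; AQP1 lies at 10.83 to 12.29 in the fetuses and at 7.67 to 9.04 in the piglets.

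More transcription factors fell than rose, also after quantile normalization (25 rose and 50 fell) and after centring (27 and 46). NFIC, a nuclear factor I protein, lay between 7.18 and 8.30 (median 7.71) at 94 dpc and between 8.88 and 10.42 (median 9.45) at 1 dpn. No fetus overlapped with a piglet, and the gene rose by 1.81 (SE 0.16, adjusted p = 1.32e-11). Its relative NFIA rose by 1.16 (SE 0.15, adjusted p = 4.82e-08), and NFIB, with 0.25, did not pass the test. STAT3, which relays interleukin 6 and leptin, lay between 9.70 and 10.37 (median 10.00) at 94 dpc and between 10.77 and 13.35 (median 11.52) at 1 dpn, again without overlap, and rose by 1.56 (SE 0.15, adjusted p = 8.35e-11). CEBPD and CEBPA, leucine zipper factors of the liver, rose by 1.08 and 0.86. TFEB, which controls genes of lysosomes and autophagy, lay between 3.88 and 7.52 (median 5.66) at 94 dpc and between 5.99 and 8.29 (median 7.29) at 1 dpn, with wide overlap, and it rose by 1.74 (SE 0.30, adjusted p = 9.64e-06). With 5 of 16 fetal arrays above background it stood just outside the rule for a switched gene. Of 16 liver-enriched factors 6 rose and 3 fell. FOXA1, FOXA2 and HHEX did not pass the test, with changes of 0.15, −0.06 and 0.02.

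Of 17 nuclear receptors 5 rose and 3 fell. PPARA, the fatty acid receptor that governs fatty acid oxidation, lay between 2.00 and 6.25 (median 5.30) at 94 dpc and between 5.36 and 8.89 (median 7.28) at 1 dpn, with overlap, and it rose by 2.29 (SE 0.36, adjusted p = 1.87e-06). It exceeded background in 2 of 16 arrays at 94 dpc and 14 of 16 at 1 dpn, and was the only transcription factor that met the rule for switching on. Its later medians were close to that of the fetus, 5.34 at 28 dpn and 5.61 at 188 dpn. RORA, an orphan receptor of lipid metabolism and the clock, lay between 7.41 and 8.34 (median 8.07) at 94 dpc and between 8.28 and 11.19 (median 9.11) at 1 dpn, with a narrow overlap, and rose by 1.56 (SE 0.25, adjusted p = 2.79e-06). It too had lower medians later, 7.27 and 7.44. NR1I2, the xenobiotic receptor, rose by 1.07 (SE 0.17, adjusted p = 3.31e-06). RXRA, the partner of PPARA and NR1I2, fell by 0.72, while HNF4A, NR3C1 and NR1H3 did not pass the test (0.18, −0.05 and −0.07). Of 6 other factors of lipid and sugar metabolism 4 fell and none rose, and 2 fell and 1 rose after quantile normalization or centring. SREBF1 and SREBF2, which drive the synthesis of fatty acids and sterols, fell by 0.75 and 0.54. ATF5, a factor of the stress response, lay between 5.74 and 8.12 (median 6.43) at 94 dpc and between 6.31 and 9.43 (median 8.38) at 1 dpn, with overlap, and rose by 1.82 (SE 0.24, adjusted p = 1.16e-07), as the only one of 14 stress factors that rose, beside 5 that fell.

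Factors of growth and differentiation were among those that fell. Of 12 factors of growth and cell cycle 8 fell and 1 rose. MYC lay between 10.03 and 12.15 (median 10.82) at 94 dpc and between 7.94 and 10.81 (median 9.18) at 1 dpn, with overlap, and it fell by 1.77 (SE 0.24, adjusted p = 1.48e-07). TFDP2, a partner of E2F, fell by 2.08 (SE 0.25, adjusted p = 1.33e-08) without overlap, and the imprinted zinc finger genes PLAGL1 and PEG3 fell by 1.87 and 1.48. PEG3 was near background later, with medians of 4.34 at 28 dpn and 4.89 at 188 dpn and 2 of 15 and 5 of 16 arrays above background. Of 12 factors of TGF-beta, Wnt and Notch signalling and of differentiation 9 fell and none rose. After quantile normalization 8 fell and 1 rose, and after centring 6 fell and 1 rose. HES1, a target of Notch, lay between 9.56 and 11.72 (median 10.41) at 94 dpc and between 7.87 and 9.13 (median 8.63) at 1 dpn, with every piglet below every fetus, and fell by 1.82 (SE 0.18, adjusted p = 1.81e-10). TCF21 of mesenchymal cells fell by 1.22 (SE 0.15, adjusted p = 2.79e-08), and SMAD4, SMAD1 and RBPJ fell by 0.56, 0.55 and 0.47. Of 16 homeobox, forkhead and other factors 10 fell and 1 rose. After quantile normalization 7 fell and 2 rose, and after centring 6 fell and 2 rose. The falls were led by ETV5, a target of growth factor signalling. ETV5 lay between 9.84 and 11.26 (median 10.53) at 94 dpc and between 7.58 and 9.49 (median 8.58) at 1 dpn, without overlap, and fell by 2.00 (SE 0.18, adjusted p = 4.18e-11). CUX1 and PBX2 were likewise lower in every piglet than in any fetus and fell by 1.17 and 0.95.

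The immediate early factors FOS and EGR1 varied widely within a stage. FOS lay between 7.42 and 14.55 (median 11.28) at 94 dpc and between 8.38 and 10.81 (median 10.03) at 1 dpn, so that the fetuses spanned the range of the piglets, and it fell by 1.59 (SE 0.51, adjusted p = 0.0089). EGR1 lay between 9.87 and 13.59 (median 11.52) at 94 dpc and between 7.28 and 11.44 (median 9.41) at 1 dpn, with wide overlap, and fell by 1.93 (SE 0.38, adjusted p = 5.21e-05), but only 1 of its 3 tested probe-sets passed the test. For these genes the mode of killing, which differed between the stages, cannot be told apart from age. Of 4 clock genes 3 fell and none rose, led by BHLHE40 with −1.28 (SE 0.24, adjusted p = 2.62e-05). After quantile normalization or centring 2 of the 4 fell and none rose.

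Of 10 blood cell factors 5 fell and 1 rose, with a median change of −0.44. KLF1, the erythroid Krueppel-like factor, lay between 8.96 and 10.70 (median 9.89) at 94 dpc and between 6.40 and 7.80 (median 6.97) at 1 dpn, without overlap, and fell by 2.78 (SE 0.16, adjusted p = 1.19e-15). MEF2D and LMO2 fell by 1.31 and 0.97. The 1 that rose, SPI1, the master factor of macrophages and granulocytes, lay between 5.87 and 8.13 (median 6.96) at 94 dpc and between 7.48 and 9.13 (median 8.35) at 1 dpn, with overlap, and rose by 1.37 (SE 0.17, adjusted p = 2.44e-08). Of 9 macrophage markers 3 rose and none fell, but without array 6 of 94 dpc 2 rose and 1 fell. Over all arrays, array 6 included, their summed linear signal was 2120 to 23769 at 94 dpc and 16916 to 39281 at 1 dpn. None was at background on all arrays of a stage. Of 6 markers of neutrophils and myeloid precursors all fell. Their part in the rise of SPI1 was not tested. Among Krueppel-like factors KLF9, which responds to glucocorticoids and thyroid hormone, rose by 1.31 (SE 0.25, adjusted p = 5.05e-05), whereas KLF10, a target of TGF-beta, fell by 1.38 (SE 0.15, adjusted p = 1.24e-09) without overlap. No transcription factor rose and 3 fell with the labelling difference as a covariate.

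**Figure D3:**
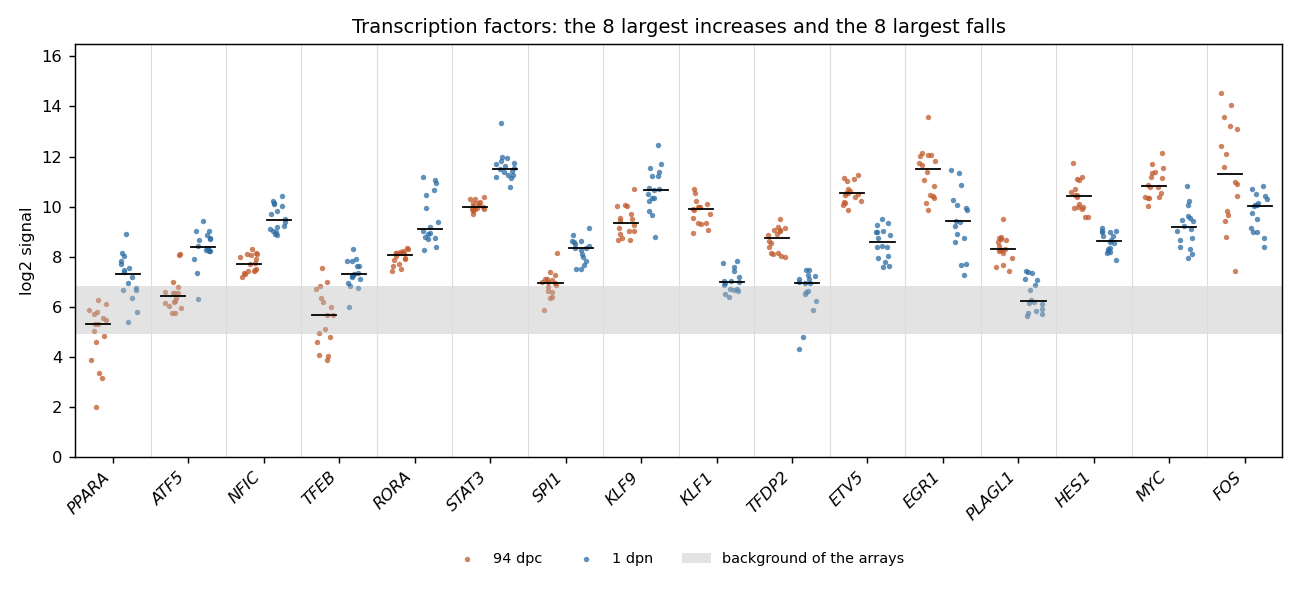
Log2 signals of the 8 transcription factors with the largest increases (left) and the 8 with the largest falls (right), with 1 point per array, 16 arrays per stage, orange for 94 dpc and blue for 1 dpn. Black bars are medians and the grey band spans the backgrounds of the arrays of both stages; NFIC and STAT3 separate the stages upwards, while FOS spreads from 7.42 to 14.55 among the fetuses alone.

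Among secreted proteins most components of complement rose. Of 23 complement genes 14 rose and 2 fell, and the balance was similar after quantile normalization (14 and 1) and after centring (15 and 1). C4A, shared by the classical and lectin pathways, lay between 8.68 and 12.09 (median 9.48) at 94 dpc and between 11.83 and 13.74 (median 13.08) at 1 dpn, nearly without overlap, and it rose by 3.25 (SE 0.23, adjusted p = 8.1e-14). C2, its partner in the same convertase, lay between 4.85 and 8.54 (median 7.48) at 94 dpc and between 8.31 and 11.19 (median 10.21) at 1 dpn, nearly without overlap, and rose by 2.93 (SE 0.29, adjusted p = 2.78e-10). MBL2, the lectin that starts the lectin pathway, lay between 2.34 and 6.76 (median 5.42) at 94 dpc and between 5.54 and 9.64 (median 7.91) at 1 dpn. It exceeded background in 3 of 16 arrays at 94 dpc and 15 of 16 at 1 dpn, rose by 3.18, and later had medians of 11.36 at 28 dpn and 10.53 at 188 dpn. The proteases C1R and C1S rose by 2.07 and 1.45, and the terminal components C9, C7 and C8G by 2.48, 1.83 and 1.55. Factor D (CFD) and VTN, which protects cells from the terminal complex, fell by 0.56 and 0.31.

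Acute phase proteins moved in both directions. The pentraxins rose. CRP lay between 3.06 and 6.72 (median 5.54) at 94 dpc and between 9.68 and 14.05 (median 11.95) at 1 dpn, without overlap, and rose by 6.37 (SE 0.38, adjusted p = 1.96e-15). Serum amyloid P, APCS, lay between 10.38 and 13.30 (median 11.78) at 94 dpc and between 14.31 and 15.54 (median 14.61) at 1 dpn, also without overlap, and rose by 2.86 (SE 0.23, adjusted p = 1.77e-12). LRG1, a glycoprotein induced by inflammation, lay between 6.01 and 9.04 (median 8.32) at 94 dpc and between 11.85 and 13.76 (median 13.19) at 1 dpn, without overlap, and rose by 4.79 (SE 0.23, adjusted p = 6.03e-18). LBP and CD14, which bind bacterial lipopolysaccharide, rose by 2.44 and 1.58. The inter-alpha-trypsin inhibitor chains ITIH2, ITIH1 and ITIH3 fell by 1.26, 1.06 and 0.79, and the probe-set taken for SAA2 did not pass the test (0.03). Another probe-set of SAA2 rose by 4.10 (SE 0.41, adjusted p = 3.46e-10), without overlap. It exceeded background on 1 of 16 arrays at 94 dpc and 16 of 16 at 1 dpn, so the probe-sets of SAA2 disagree. Of 14 acute phase genes 5 rose and 5 fell, and 7 rose and 3 fell after quantile normalization.

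Carriers of the plasma fell in 12 of 19 genes and rose in 3, although after quantile normalization 8 fell and 7 rose. Of the 8 hepatocyte markers 5 fell and 1 rose, and 2 fell and 5 rose after quantile normalization, with a summed linear signal of 369438 to 515636 at 94 dpc and 300632 to 461233 at 1 dpn. Binding proteins of hormones were among the falls. SERPINA6, the corticosteroid-binding globulin, lay between 12.50 and 14.30 (median 13.12) at 94 dpc and between 10.05 and 12.36 (median 11.00) at 1 dpn. All fetuses lay above all piglets, and the gene fell by 2.17 (SE 0.21, adjusted p = 2.44e-10). Its later medians were 12.56 at 28 dpn and 14.24 at 188 dpn. SERPINA7, the thyroxine-binding globulin, lay between 13.45 and 14.37 (median 13.92) at 94 dpc and between 11.02 and 12.98 (median 12.03) at 1 dpn, again without overlap, and fell by 1.84 (SE 0.14, adjusted p = 3.43e-13). AFP, the fetal albumin, fell by 0.51 and ALB did not pass the test (0.06). The 3 carriers that rose were AZGP1, hemopexin (HPX) and haptoglobin (HP), by 4.10, 1.27 and 0.48. AZGP1, a lipid-mobilising glycoprotein, lay between 7.61 and 9.39 (median 8.72) at 94 dpc and between 11.07 and 13.83 (median 12.92) at 1 dpn, without overlap, and rose by 4.10 (SE 0.23, adjusted p = 6.97e-16), which is 17.1-fold.

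Proteins of lipoproteins rose in 5 of 16 genes and fell in 5, and 10 rose and 4 fell after quantile normalization. PON3, a lactonase of high density lipoprotein, lay between 2.75 and 6.68 (median 3.81) at 94 dpc and between 7.14 and 12.19 (median 9.93) at 1 dpn. It went from background in nearly all fetuses to a clear signal in every piglet (1 of 16 arrays at 94 dpc and 16 of 16 at 1 dpn), and it rose by 5.77 (SE 0.47, adjusted p = 3.07e-12). APOA4, made when fat is absorbed or exported, lay between 5.26 and 8.99 (median 7.01) at 94 dpc and between 8.20 and 13.32 (median 10.27) at 1 dpn, with overlap, and rose by 3.62 (SE 0.45, adjusted p = 2.82e-08). ANGPTL4, an inhibitor of lipoprotein lipase, lay between 3.73 and 7.32 (median 6.39) at 94 dpc and between 8.16 and 10.12 (median 8.94) at 1 dpn, without overlap, and rose by 2.88 (SE 0.32, adjusted p = 3.71e-09). APOM, which carries sphingosine phosphate, lay between 13.88 and 14.61 (median 14.34) at 94 dpc and between 12.46 and 13.27 (median 12.99) at 1 dpn, with the fetuses wholly above the piglets, and fell by 1.34 (SE 0.09, adjusted p = 1.03e-14). The hepatic lipase LIPC fell by 0.95. APOB, APOE, APOC2 and APOC3 did not pass the test.

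Secreted hormones and growth factors fell in 13 of 27 and rose in 5. NUCB2, the precursor of nesfatin, was the largest increase and lay between 8.05 and 9.80 (median 8.93) at 94 dpc and between 10.37 and 12.20 (median 11.24) at 1 dpn, without overlap, and rose by 2.42 (SE 0.16, adjusted p = 5.31e-14). Its medians at 28 dpn and 188 dpn were 9.26 and 8.12. IGF1, the mediator of growth hormone, and PTN, a heparin-binding growth factor, rose by 0.78 and 1.12, whereas MDK, the relative of PTN, and IGF2 fell by 1.67 and 0.72. EPDR1, an ependymin-related glycoprotein, lay between 6.42 and 8.36 (median 7.85) at 94 dpc and between 1.32 and 5.67 (median 4.77) at 1 dpn. No piglet was above background, so that only a bound can be given. Against the mean background of the newborn arrays the gene was at least 3.80-fold lower at 1 dpn (adjusted p = 1.11e-10). SFRP1, which binds Wnt ligands, lay between 8.85 and 10.13 (median 9.58) at 94 dpc and between 7.10 and 8.77 (median 7.77) at 1 dpn, without overlap, and fell by 1.80 (SE 0.15, adjusted p = 2.81e-12). IGFBP1, which responds to insulin and fasting, lay between 13.68 and 15.37 (median 14.83) at 94 dpc and between 9.65 and 15.19 (median 13.15) at 1 dpn, with wide overlap, and fell by 1.71 (SE 0.40, adjusted p = 0.000547). The chemokine of the blood stem cell niche, CXCL12, lay between 11.28 and 13.16 (median 12.81) at 94 dpc and between 9.75 and 11.37 (median 10.78) at 1 dpn, nearly without overlap, and fell by 1.98 (SE 0.18, adjusted p = 2.9e-11). HAMP, the iron hormone, did not pass the test (0.02).

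Antimicrobial and mucosal proteins fell in 8 of 12 genes and rose in 2. The spermadhesin PSP-II lay between 11.40 and 13.56 (median 12.35) at 94 dpc and between 2.46 and 7.00 (median 5.57) at 1 dpn, without overlap, and fell by 7.15 (SE 0.34, adjusted p = 7.02e-18). NPG4 and PR39 are antimicrobial peptides stored in granules of neutrophils. NPG4 lay between 10.84 and 15.22 (median 14.19) at 94 dpc and between 8.38 and 12.78 (median 11.20) at 1 dpn, with overlap, and fell by 3.10 (SE 0.39, adjusted p = 4.95e-08). PR39 lay between 7.34 and 12.46 (median 10.80) at 94 dpc and between 5.95 and 9.66 (median 8.06) at 1 dpn, also with overlap, and fell by 2.60 (SE 0.38, adjusted p = 6.45e-07). PGLYRP1, another granule protein, and the calprotectin subunits S100A9 and S100A8 fell by 1.94, 1.53 and 1.11. The summed linear signal of the 6 neutrophil and myeloid markers was 1031 to 13993 at 94 dpc and 550 to 4671 at 1 dpn, with none at background on all arrays, and that of 3 platelet markers was 673 to 1936 and 360 to 772. PPBP, a platelet chemokine and 1 of these 3, fell by 2.83 (SE 0.50, adjusted p = 1.19e-05). Their part in these falls was not tested. DEFB1, a defensin of epithelia, rose by 1.52.

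Matrix proteins fell in 17 of 28 genes and rose in 2. THBS1, which binds matrix and activates TGF-beta, fell by 1.61 (SE 0.24, adjusted p = 8.52e-07), and the basement membrane proteins NID2 and COL15A1 fell by 1.51 and 1.33. NID2 lay between 8.96 and 10.11 (median 9.65) at 94 dpc and between 6.92 and 8.82 (median 8.34) at 1 dpn, with no overlap. MGP, an inhibitor of calcification, and the collagen COL1A2 were the members that rose. MGP lay between 8.03 and 11.10 (median 10.46) at 94 dpc and between 11.88 and 14.30 (median 12.83) at 1 dpn, with every piglet above every fetus, and rose by 2.63 (SE 0.26, adjusted p = 3.62e-10). The collagens COL1A2 and COL3A1 changed by 0.49 and 0.25, of which only the former passed the test. Among inhibitors of proteases CST6, a cystatin, lay between 7.47 and 9.90 (median 8.67) at 94 dpc and between 2.56 and 6.66 (median 3.83) at 1 dpn, without overlap, and fell by 4.34 (SE 0.37, adjusted p = 8.42e-12). WFDC1, of the whey acidic protein family, lay between 7.35 and 9.01 (median 8.15) at 94 dpc and between 9.78 and 10.99 (median 10.31) at 1 dpn, without overlap, and rose by 2.21 (SE 0.14, adjusted p = 1.1e-14). SERPINF1, an inhibitor of vessel growth, fell by 1.54 (SE 0.10, adjusted p = 1.36e-14), with no overlap. Coagulation proteins fell in 8 of 19 and rose in 6, and 5 fell and 7 rose after quantile normalization. The anticoagulant protein C (PROC) fell by 0.88 (SE 0.08, adjusted p = 1.24e-11) without overlap, and tissue factor (F3) fell by 1.38 (SE 0.41, adjusted p = 0.00472). With the labelling difference as a covariate 9 secreted proteins rose and 6 fell.

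**Figure D4:**
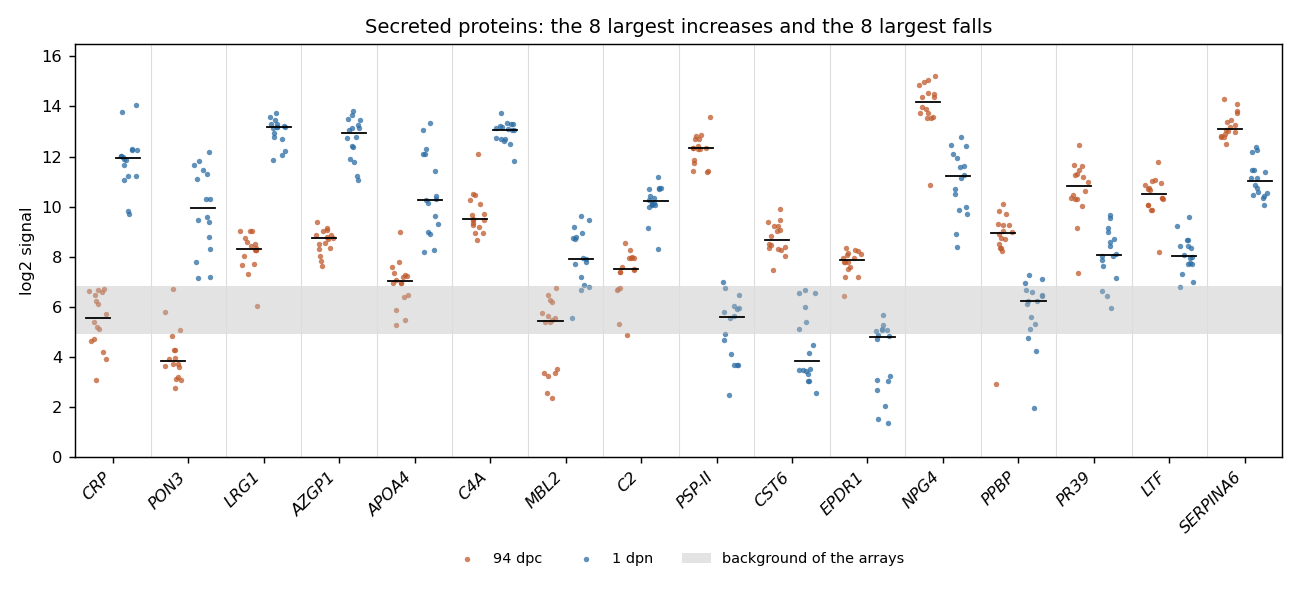
Log2 signals of the 8 secreted proteins with the largest increases (left) and the 8 with the largest falls (right), with 1 point per array, 16 arrays per stage, orange for 94 dpc and blue for 1 dpn. Black bars are medians and the grey band spans the backgrounds of the arrays of both stages; CRP and PON3 rise out of the band, and EPDR1 falls into and below it.

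Receptors for hormones, growth factors and cytokines rose in 19 of 57 genes (33.3%) and fell in 16 (28.1%), near the shares of all genes (27.9% and 30.6%). Of 10 cytokine receptors 8 rose and none fell, also under both scalings, led by the interferon receptor chain IFNAR1, which lay between 7.37 and 9.11 (median 8.65) at 94 dpc and between 8.66 and 11.13 (median 9.55) at 1 dpn, with overlap, and rose by 0.98 (SE 0.17, adjusted p = 1.12e-05). IL13RA1, IL1R1 and IFNGR1 rose by 0.82, 0.78 and 0.64. GHR, the receptor of growth hormone, lay between 2.94 and 6.40 (median 4.33) at 94 dpc and between 7.26 and 8.69 (median 8.06) at 1 dpn. The ranges did not overlap, the gene exceeded background in 1 of 16 arrays at 94 dpc and 16 of 16 at 1 dpn, and it rose by 3.67 (SE 0.22, adjusted p = 2.43e-15). SCARA5, a ferritin receptor, lay between 1.88 and 7.59 (median 6.27) at 94 dpc and between 8.09 and 10.02 (median 8.80) at 1 dpn, without overlap, and rose by 3.49 (SE 0.48, adjusted p = 1.7e-07). CD163, which takes up haemoglobin bound to haptoglobin, rose by 1.46 (SE 0.22, adjusted p = 1.26e-06), without overlap, and is, like CD14, 1 of the 3 macrophage markers that rose. The transferrin receptor TFRC lay between 6.81 and 9.78 (median 8.77) at 94 dpc and between 2.38 and 8.95 (median 6.83) at 1 dpn, with overlap, and fell by 2.19 (SE 0.44, adjusted p = 7.08e-05), and it exceeded background on 0 of 15 arrays at 28 dpn. The erythropoietin receptor EPOR fell by 1.72 (SE 0.16, adjusted p = 3.45e-11) without overlap. Both TFRC and EPOR, like KLF1, are among the red cell markers. The growth factor receptors TGFBR1 and PDGFRB fell by 1.06 and 1.01, and EGFR rose by 0.88. IGF1R had 2 probe-sets that passed the test in opposite directions, so that no direction is given.

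A stricter rule asked which genes were turned on or off rather than up or down. A gene had to change by at least 1 on the log2 scale and pass the test, and to be above background on at most 4 of 16 arrays of one stage and at least 12 of 16 of the other. Where one stage is at background the size of a change is not exact, and such changes have no order. By this rule 39 probe-sets (0.304%) were switched on and 15 (0.117%) switched off, which gave 15 genes on (0.287%) and 4 off (0.0765%). At the level of probe-sets ANGPTL4, GK, GMPPB, SAA2 and TTF1 were also switched on and BEX3 off, each by a probe-set other than the one taken for the gene. None of the genes was a transporter of the lists. Those of the classes were PPARA, the secreted proteins MBL2 and PON3 and the receptor GHR, switched on, and the secreted protein EPDR1, switched off. The other genes switched on included enzymes of metabolism. ETNPPL, which breaks down phosphoethanolamine, lay between 0.70 and 7.02 (median 3.40) at 94 dpc and between 7.93 and 13.30 (median 10.60) at 1 dpn, without overlap, and rose by 7.09 (SE 0.54, adjusted p = 6.12e-13). SDS, which turns serine into pyruvate, lay between 2.82 and 6.67 (median 4.75) at 94 dpc and between 4.67 and 14.37 (median 7.64) at 1 dpn and rose by 3.40 (SE 0.72, adjusted p = 0.000147), with a wide spread among the piglets. UOX, urate oxidase, lay between 2.26 and 6.53 (median 5.23) at 94 dpc and between 5.15 and 9.45 (median 7.89) at 1 dpn, with overlap, and rose by 2.97 (SE 0.40, adjusted p = 1.69e-07). The cytochromes CYP3A46 and CYP2C32 rose by 3.84 and 3.74. Both belong to families of near-identical genes, so a probe-set may read more than one member.

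CBR2, a carbonyl reductase, TP53INP2, a regulator of autophagy, and PARM1, a membrane glycoprotein, were also switched on, with changes of 5.22, 6.00 and 3.39. PML, of nuclear bodies, CC2D1A, a signalling regulator, and TMEM38B, a cation channel of the endoplasmic reticulum, were switched on too, with changes of 2.40, 1.90 and 1.44. Beside EPDR1 the genes switched off were PHACTR3, a regulator of actin and phosphatase 1, NPW, the precursor of neuropeptide W, and TNNI1, the troponin I of slow muscle. PHACTR3 lay between 7.83 and 8.91 (median 8.38) at 94 dpc and between 1.57 and 6.32 (median 3.75) at 1 dpn, without overlap, and fell by 4.36 (SE 0.38, adjusted p = 1.92e-11). NPW lay between 6.04 and 8.39 (median 7.49) at 94 dpc and between 2.32 and 7.09 (median 4.25) at 1 dpn, with overlap, and fell by 2.93 (SE 0.36, adjusted p = 1.96e-08).

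Most genes that were switched on were above background later too. Of the 15 genes 13 were above background on at least 12 of the 15 arrays at 28 dpn, and 13 on at least 12 of 16 at 188 dpn. The exceptions were PPARA and CBR2. CBR2 exceeded background in 10 of 15 animals at 28 dpn and 3 of 16 at 188 dpn, with medians of 9.10 at 1 dpn, 5.76 at 28 dpn and 3.82 at 188 dpn. PPARA was above it on 5 of 15 and 8 of 16. Of the 4 genes switched off 3 were off at 28 dpn and 3 at 188 dpn, and none was on again at either stage by the same shares. With the labelling difference as a covariate 4 probe-sets were switched on and 2 off.

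**Figure D5:**
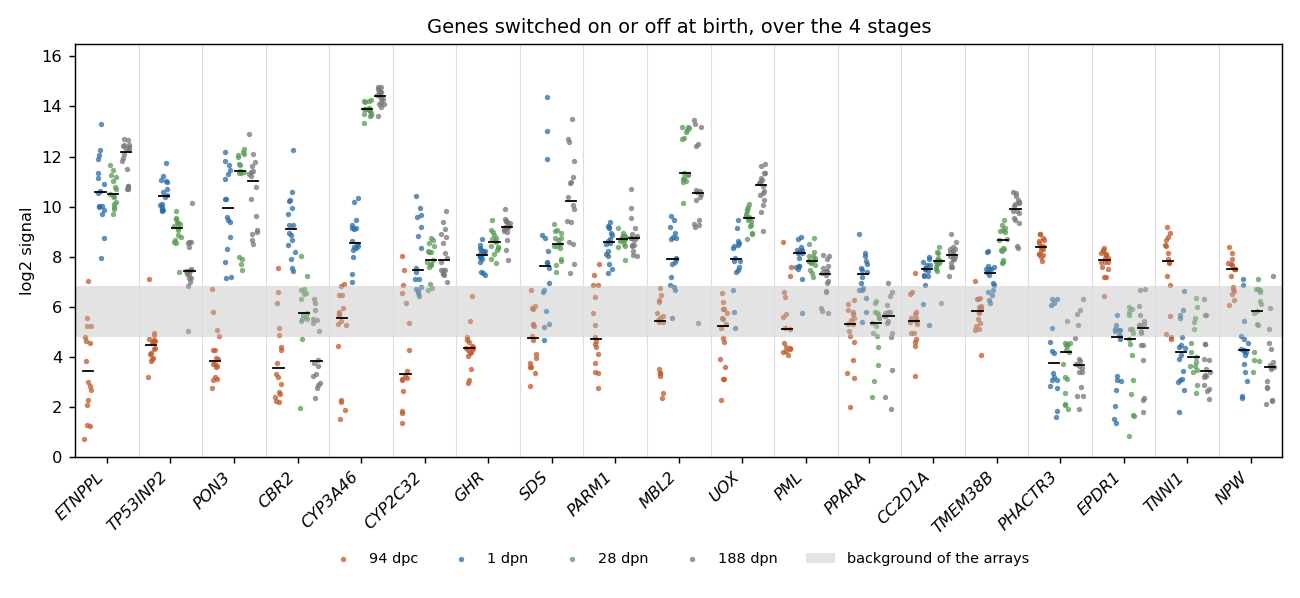
Log2 signals of the 15 genes switched on between 94 dpc and 1 dpn and the 4 switched off (last on the right), with 1 point per array at 94 dpc (16 arrays, orange), 1 dpn (16, blue), 28 dpn (15, green) and 188 dpn (16, grey). Black bars are medians and the grey band spans the backgrounds of the 63 arrays; the median of CBR2 is 9.10 at 1 dpn and 3.82 at 188 dpn.

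Outside the classes, and among genes with a symbol, HPD, an enzyme of tyrosine breakdown, lay between 0.96 and 7.99 (median 5.23) at 94 dpc and between 12.66 and 14.88 (median 13.65) at 1 dpn, without overlap, and rose by 9.12 (SE 0.65, adjusted p = 1.46e-13). Its fetal signal exceeded background on 6 of 16 arrays, so the size of the change is not exact. CYP2E1, which oxidises ethanol and ketones, lay between 7.48 and 10.49 (median 8.78) at 94 dpc and between 13.33 and 15.30 (median 14.15) at 1 dpn, without overlap, and rose by 5.45 (SE 0.25, adjusted p = 4.31e-18). SULT1E1, the oestrogen sulfotransferase, lay between 0.98 and 8.74 (median 6.15) at 94 dpc and between 9.96 and 12.00 (median 10.99) at 1 dpn, without overlap, and rose by 5.45 (SE 0.54, adjusted p = 3.1e-10). In the other direction PNPLA3, a lipid hydrolase, lay between 9.20 and 10.81 (median 10.19) at 94 dpc and between 1.30 and 7.36 (median 6.12) at 1 dpn, without overlap, and fell by 4.49 (SE 0.42, adjusted p = 7.63e-11). ISYNA1, which makes inositol, lay between 14.66 and 15.47 (median 15.23) at 94 dpc and between 9.74 and 14.32 (median 11.19) at 1 dpn, also without overlap, and fell by 3.54 (SE 0.30, adjusted p = 7.8e-12). LOC100738720, an uncharacterised entry of the annotation, fell by 3.25 (SE 0.17, adjusted p = 3.91e-17).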

How the data were processed

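Liver RNA (biotin-labelled cRNA from total RNA) was hybridised to Affymetrix porcine arrays, and stages were taken from the labels. The deposited values are log2 signals, which the submitters' processing notes tie to GCOS 1.1.1. Tested on the table, the authors had scaled each array to a mean linear signal of 500 without the top and bottom 2%, and signals under 1 stand at 0. No normalization between arrays had been added. The study's own model used GCRMA values with sex, mother and weight, which the labels do not give.

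Of 24123 probe-sets 188 controls were left out. The platform annotation, which may be old, gave 10069 of the other 23935 exactly 1 symbol (6765 genes), 198 several and 13668 none. The array limits precision by the number of arrays, 16 per stage, and by the distance of a signal from background. By the paper's account the animals were sib pairs, so the litters of a stage are fewer than its arrays. Changes were fitted with limma 3.58.1 in R 4.3.3 (lmFit and eBayes, two-sided) over all 12839 probe-sets that passed the filter. Summaries and figures were made with Python 3.11.15, pandas 2.3.3 and matplotlib 3.10.9.

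The comparison, the gene lists and the rules were chosen with earlier results of these data known. The lists of transporters, transcription factors and secreted proteins hold 668 genes on the array. The genes chosen for naming were the 8 largest increases and falls of each of these lists, the 4 largest of the receptors, up to 4 of the largest of each subgroup, all switched genes and the 6 largest increases and falls in none of the lists. Some other members named in the text, and the list of muscle genes, were picked with their values in view. Alternatives were other filters, quantile normalization, centring on the median, all 63 arrays in 1 fit, a trend in eBayes, arrayWeights, arrays left out, the 3′ to 5′ difference of 4 added RNAs as a covariate, a Wilcoxon rank-sum test, averaging over all probe-sets of each gene, other thresholds and other backgrounds. Leaving out arrays 4, 9 and 11 of 1 dpn was added after seeing the data. On simulated data with 200 planted changes among 12839 probe-sets, 41.8%, 86.6% and 100% of changes of 0.5, 1 and 2 were recovered. Of the 159 calls made there, 4.40% were false. In the comparison of 1 dpn with 94 dpc 56.9% of the probe-sets were called. Whether the rates of recovery and of false calls hold for that comparison was not tested.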

Additional observations from a re-analysis of the deposited data

How the results depend on the processing

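No chosen gene changed direction under quantile normalization, centring, all 63 arrays in 1 fit, a trend, arrayWeights, the Wilcoxon test or the arrays left out. In these settings no count of probe-sets, of the 3 whole lists or of switched genes moved by more than 1.5 times. Some counts of subgroups and markers moved further. After quantile normalization the plasma carriers that rose went from 3 to 7, and the hepatocyte markers that rose from 1 to 5. Calls were lost for 6 of the 168 genes after quantile normalization, 5 after centring, 5 without a filter, 2 in the fit of all 63 arrays, 2 without arrays 4, 9 and 11 of 1 dpn, and 1 each with arrayWeights, the Wilcoxon test and the mean of probe-sets. Without a filter 103 probe-sets were switched on and 47 off, and 7 listed genes on and 3 off. With the filter at the 75th percentile 2458 probe-sets and 21 transporters fell, 9 probe-sets were switched on and 2 off, and 1 listed gene on and 0 off, since fewer were tested. A change of at least 2-fold left 656 probe-sets that rose and 896 that fell, with 17 and 10 transporters, 12 and 16 transcription factors and 26 and 38 secreted proteins. With the background at the 90th percentile 8 probe-sets were switched off, with the highest control as background 60 were switched on and 25 off and 5 and 3 listed genes, and with at most 2 and at least 14 arrays 14 and 6 probe-sets.

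With the labelling difference as a covariate 90 probe-sets rose and 147 fell, 0 transporters rose and 2 fell, 0 transcription factors rose and 3 fell, 9 secreted proteins rose and 6 fell, 4 probe-sets were switched on and 2 off, and 1 listed gene on. The covariate does not overlap between the stages, so this fit leaves little of the stage to estimate. In it 11 genes turned sign, to −0.0033 for ABCG8, 0.031 for CXCL9, −0.41 for ELF3, −0.65 for IGF1R, −0.44 for MFSD2A, −1.62 for SCARA5, −0.93 for SDS, 0.024 for SLC35F5, −0.26 for SLC37A4, 0.50 for SREBF1 and 0.24 for USF2. With the mean of the probe-sets IGF1R changed by −0.040. The cause was not tested. No pairing between the stages existed, as the fetuses and the piglets came from separate experiments with other sows. Sib pairs within a stage could not be used because the labels do not give them.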

Other observations

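Genes of skeletal muscle were measured in the fetal liver. TNNI2, the troponin I of fast muscle, lay between 7.74 and 13.05 (median 11.92) at 94 dpc and between 2.17 and 9.69 (median 4.69) at 1 dpn, with overlap, and fell by 5.89 (SE 0.67, adjusted p = 5.27e-09). TNNI1, that of slow muscle, lay between 4.72 and 9.20 (median 7.83) at 94 dpc and between 1.78 and 6.64 (median 4.20) at 1 dpn, with overlap, and fell by 3.22 (SE 0.48, adjusted p = 8.82e-07). CKM, the creatine kinase of muscle, fell by 2.02 (SE 0.20, adjusted p = 2.5e-10), without overlap. These were the 3 of 18 muscle genes that were tested, the list having been written after these values were seen. The summed linear signal of the 18 was 1647 to 10118 at 94 dpc and 503 to 1860 at 1 dpn. Of the 15 that failed the filter on level some were seen less often at 1 dpn, as ACTC1 exceeded background in 8 of 16 arrays at 94 dpc and 0 of 16 at 1 dpn, TNNC1 in 8 of 16 arrays at 94 dpc and 3 of 16 at 1 dpn and TNNC2 in 4 of 16 arrays at 94 dpc and 0 of 16 at 1 dpn. Others were not, as MYL3 exceeded it in 13 of 16 arrays at 94 dpc and 13 of 16 at 1 dpn, MYH7 in 13 of 16 arrays at 94 dpc and 13 of 16 at 1 dpn and MYLPF in 2 of 16 arrays at 94 dpc and 2 of 16 at 1 dpn, and MYL2 in 2 of 16 arrays at 94 dpc and 7 of 16 at 1 dpn.

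None of 8 T and NK cell markers and neither of the 2 B cell markers passed the filter on level, although several were above background on many arrays of these stages. CD3D, of the T cell receptor complex, exceeded background in 15 of 16 arrays at 94 dpc and 13 of 16 at 1 dpn, CD247 in 14 of 16 arrays at 94 dpc and 13 of 16 at 1 dpn and CD3E in 13 of 16 arrays at 94 dpc and 7 of 16 at 1 dpn. JCHAIN, the joining chain of antibodies, exceeded it in 14 of 16 arrays at 94 dpc and 13 of 16 at 1 dpn. GNLY, a protein of cytotoxic granules, did so in 3 of 16 arrays at 94 dpc and 0 of 16 at 1 dpn and PRF1, perforin, in 0 of 16 arrays at 94 dpc and 2 of 16 at 1 dpn. The summed linear signal of the T and NK cell markers was 288 to 1330 at 94 dpc and 235 to 641 at 1 dpn, against 1244 to 3419 at 28 dpn.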
